A study of Mus musculus with 6 samples.

Results

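Cytoskeleton and endocytosis scaffold genes are represented here by the 9 transcripts listed for 4 loci, out of 831 transcripts in the deposited comparison table. They were found by the symbols Epb41, Itsn1, Ccdc88a and Kifc1 and by the locus identifier that the transcript assembly gave to those rows. Epb41 has 4 transcripts, Itsn1 and Kifc1 have 2 each and Ccdc88a has 1. An Ensembl identifier is given for 7 of the 9, and the other 2 are models that the assembly built from reads. The table lists only transcripts with an adjusted p under 0.05 between the diets, so these transcripts were chosen by their measured difference between the diets, with an adjusted p and a fold change already in the table. The differences of these 9 between the diets are therefore descriptions and carry no test.

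The libraries come from testis of C57BL/6 mice given high-fat food for 8 weeks (libraries 10, 11 and 12) or normal food for 8 weeks (libraries 7, 8 and 9). Each library is strand-specific RNA-seq of tissue extracted with Trizol. The labels do not say whether each library is 1 animal, and the spread between libraries may be partly technical. In whole testis, fewer cells of a type and less RNA per cell cannot be told apart. Over all listed transcripts the high-fat libraries hold 427777 to 490603 counts and the normal-food libraries 362790 to 402866, which is only a part of each library's depth. Of 45 marker genes for testicular germ and somatic cells, blood, fat and epididymis, 0 had a listed transcript, so the makeup of the tissue was not analysed here and its part in the values below was not tested.

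These proteins work at membranes or on the cytoskeleton. Epb41 encodes protein 4.1R, which ties the spectrin and actin network to membrane proteins. A small cassette exon of its spectrin-actin-binding domain is known for being switched on as red cells mature. Itsn1 encodes intersectin, a scaffold of clathrin-mediated endocytosis with EH and SH3 domains, and its long form also carries a guanine nucleotide exchange module for Cdc42. Ccdc88a encodes girdin, an actin-binding protein that modulates trimeric G proteins and is a substrate of Akt. Kifc1 is a minus-end-directed kinesin that bundles spindle microtubules and has been found near the nucleus and acrosome of developing rodent spermatids.

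The annotated transcripts of Epb41 and Itsn1 in the list depart from the main coding forms of those genes in several places. For the 7 annotated transcripts, the exon number in the deposited table is that of GENCODE M21, and the deposited length exceeds the GENCODE length by exactly the bases by which an end was moved outward. The 3 coding exons below, read from GENCODE M21 on GRCm38, are some of those places. They are shown because 1 separates the full-span Epb41 transcripts and the others are shortened in a single annotated transcript, which is listed. The first is the Epb41 cassette exon on chromosome 4, chr4:131962924-131962986 on the minus strand, present in Epb41-204 and absent from Epb41-215. It has 63 bases, or 21 codons, and is shown in capitals throughout. The second is an Epb41 exon of 129 bases at chr4:131935739-131935867, in which capitals mark the 15 bases that Epb41-218 leaves out. The third is an Itsn1 exon of 180 bases on chromosome 16, plus strand, chr16:91801527-91801706, in which capitals mark the 111 bases that Itsn1-207 leaves out.
Epb41 cassette exon: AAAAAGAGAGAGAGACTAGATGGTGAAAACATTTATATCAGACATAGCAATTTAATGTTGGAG
Epb41 exon shortened in Epb41-218: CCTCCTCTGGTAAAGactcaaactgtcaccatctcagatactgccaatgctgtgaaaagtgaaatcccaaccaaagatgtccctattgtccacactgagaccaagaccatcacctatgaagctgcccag
Itsn1 exon shortened in Itsn1-207: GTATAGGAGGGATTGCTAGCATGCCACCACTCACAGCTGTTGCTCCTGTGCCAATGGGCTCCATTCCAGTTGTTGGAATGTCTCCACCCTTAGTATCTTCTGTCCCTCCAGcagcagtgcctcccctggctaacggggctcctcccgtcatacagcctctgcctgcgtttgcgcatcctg
The cassette exon is in 9 of the 19 GENCODE transcripts of Epb41. Each shortened form is in 1 GENCODE transcript of its gene, while the full Itsn1 exon is in 8 of 31.

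The start sites also differ within loci. The promoter windows of RefSeq (GRCm38.p6, from 250 bases before to 50 bases after a gene's start) hold the first base of 5 of the 9 transcripts, namely Epb41-204, Epb41-215, Itsn1-207, Ccdc88a-201 and Kifc1-204. The other 4, Epb41-217, Epb41-218 and both assembled transcripts, begin inside their genes. For the 3 loci with more than 1 listed transcript, the window that holds the first base of a listed transcript is shown, because other listed transcripts there start away from it. RefSeq gives Epb41 3 windows, and the 2 that hold no first base of a listed transcript are not printed. Capitals mark CRE (TGACGTCA), CCAAT box (CCAAT), GC box (GGGCGG) and CHR (TTTGAA) matches on either strand. The 4 motifs were chosen after the sequences had been seen.
Epb41, chr4:132075264-132075563, minus strand: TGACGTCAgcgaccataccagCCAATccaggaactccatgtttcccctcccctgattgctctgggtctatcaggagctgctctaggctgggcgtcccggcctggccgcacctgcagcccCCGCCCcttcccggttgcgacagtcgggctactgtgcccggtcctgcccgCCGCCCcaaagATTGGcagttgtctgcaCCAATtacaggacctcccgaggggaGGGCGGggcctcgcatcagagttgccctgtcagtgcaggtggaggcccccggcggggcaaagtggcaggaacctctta
Itsn1, chr16:91729121-91729420, plus strand: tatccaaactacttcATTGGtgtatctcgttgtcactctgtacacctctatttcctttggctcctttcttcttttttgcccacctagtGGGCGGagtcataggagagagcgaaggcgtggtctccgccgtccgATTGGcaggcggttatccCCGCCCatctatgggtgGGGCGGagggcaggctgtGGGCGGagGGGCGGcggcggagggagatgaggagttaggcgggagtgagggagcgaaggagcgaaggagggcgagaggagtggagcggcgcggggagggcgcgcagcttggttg
Kifc1, chr17:33890584-33890883, minus strand: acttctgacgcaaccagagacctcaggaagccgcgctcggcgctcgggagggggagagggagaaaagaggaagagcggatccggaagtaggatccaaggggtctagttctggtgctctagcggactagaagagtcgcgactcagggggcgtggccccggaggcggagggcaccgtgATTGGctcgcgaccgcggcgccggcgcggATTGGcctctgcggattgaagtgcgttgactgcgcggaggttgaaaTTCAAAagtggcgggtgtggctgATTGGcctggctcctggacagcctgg
The printed Epb41 window holds 1 CRE, the element bound by cAMP-responsive factors, 3 CCAAT boxes and 3 GC boxes. Of the unprinted Epb41 windows, that at chr4:132072048-132072347 holds 1 CCAAT box and 1 CHR, that at chr4:132049029-132049328 holds 2 CCAAT boxes and 2 GC boxes, and neither holds a CRE. The Itsn1 window holds 2 CCAAT boxes and 5 GC boxes. The Kifc1 window holds 3 CCAAT boxes and 1 CHR, an element known from promoters of cell cycle genes. Of 32851 mouse windows of the same length, 1.79% hold the CRE, 37.4% a CCAAT box, 35.7% a GC box and 17.9% a CHR. No printed match overlaps another. These matches describe letters and not binding.

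**Figure D1:**
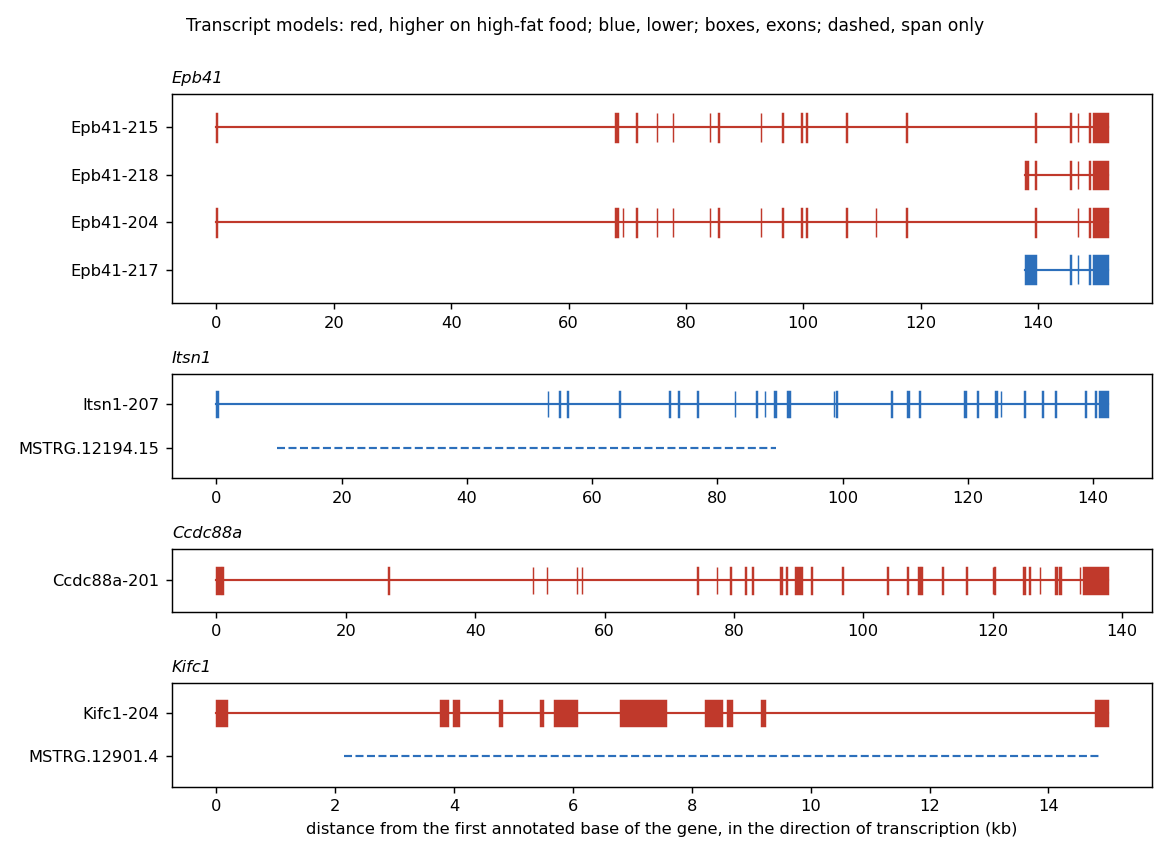
Models of the 9 transcripts, drawn by distance from the first annotated base of each gene in the direction of transcription (kb). Boxes are exons with the deposited ends, dashed lines are the spans of the assembled transcripts, red is higher and blue is lower on high-fat food. Both full-span Epb41 models are red, both Itsn1 models are blue, and the Kifc1 locus has 1 of each.

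Epb41 spans chr4:131923413-132075321 on the minus strand, and its 4 listed transcripts split by diet. Epb41-215 (ENSMUST00000146021) covers the whole span in 18 exons. It had 159.7, 593 and 278 scaled counts in the high-fat libraries and 0 in each normal-food library. A scaled count is the deposited count divided by the library's size factor. The mean was 344 ± 224 on high-fat food (SD, n = 3), which against a floor of 3 counts per library is at least 117-fold higher, or at least 74.6-fold without library 11. The deposited table types this transcript as protein coding, whereas GENCODE M21 gives it no coding sequence. Relative to Epb41-201, a principal coding form of 858 residues, it lacks 3 coding exons, of 63, 42 and 57 bases. The exon of 63 bases is the cassette exon printed above.

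Epb41-218 (ENSMUST00000155990), a coding fragment of 6 exons from the 3′ part of the gene, had 55.1, 20.0 and 41.3 scaled counts on high-fat food and 0 in each normal-food library. It was at least 13.2-fold higher. Epb41-204 (ENSMUST00000105970), which encodes 639 residues, had 16.5, 10.01 and 4.39 scaled counts on high-fat food and 0 in each normal-food library, at least 3.51-fold higher. It carries the cassette exon, and lacks coding exons of 102, 42 and 57 bases. Epb41-204 is the member nearest to the threshold of the list, with an adjusted p of 0.0437 in the authors' deposited table. Transcripts just outside the threshold were not analysed here. Among the 4 listed Epb41 transcripts, the most abundant in the high-fat libraries lacks the cassette exon, and Epb41-204, which carries it, was near the counting floor. Of the 9 GENCODE transcripts with this exon, only Epb41-204 is listed, so how often the exon is included was not analysed here. Epb41-204 and Epb41-218 have 0 bases, and Epb41-215 has 29, that are in no other GENCODE transcript of the gene. Splice junctions in no other transcript are 2 of 18 in Epb41-204, 1 of 17 in Epb41-215 and 1 of 5 in Epb41-218. Apart from reads over these few places, the counts of these transcripts rest on how shared reads were divided.

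Epb41-217 (ENSMUST00000151746), noncoding with 5 exons, was lower on high-fat food. It had 11.01, 13.02 and 14.1 scaled counts on high-fat food, against 471, 276 and 19.4 on normal food. Normal-food library 9 lies close to the high-fat libraries, but the groups do not overlap. The means were 12.7 ± 1.55 on high-fat food and 256 ± 227 on normal food (SD, n = 3 each). The log2 difference was -4.32 ± 1.14 (SE, edgeR) and -3.53 without library 7. Epb41-217 and Epb41-218 share their first and last bases in the deposited table, chr4:131923413-131937464. In GENCODE, Epb41-217 has 1147 bases found in no other Epb41 transcript, in a long first exon where Epb41-218 splices out an intron.

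Summed over the 4 listed transcripts, Epb41 had 242, 636 and 338 scaled counts on high-fat food, against 471, 276 and 19.4 on normal food. The libraries of the diets overlap, and the means of 405 ± 205 and 256 ± 227 differ by less than the spread between libraries (log2 difference 0.67 ± 1.04, SE). The log2 difference of the sum was 1.46 without library 7, and 0.08 with DESeq2's size factors. Those factors were estimated from the listed transcripts alone, which were chosen by their diet difference. Epb41-215 made up 65.9%, 93.2% and 82.3% of the listed Epb41 counts in the high-fat libraries. Epb41-217 made up 100% in each normal-food library. The other GENCODE transcripts of Epb41 are not listed, so the total output of the gene was not analysed here.

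Itsn1 is on the plus strand of chromosome 16. Itsn1-207 (ENSMUST00000114001, chr16:91729281-91871655, 29 exons) had 0 counts in each high-fat library, against 702, 821 and 711 scaled counts in the normal-food libraries. The normal-food mean was 745 ± 66.4 (SD, n = 3), and the transcript was at least 249.9-fold lower on high-fat food. The normal-food libraries are close to each other, with the highest 1.17 times the lowest. Itsn1-207 encodes 1176 residues of a short intersectin, against 1213 in Itsn1-201. The difference of 37 codons is the stretch printed in capitals above. It lacks 11 coding exons at the 3′ end of Itsn1-208, the long form of 1714 residues. In the deposited table, Itsn1-207 ends 1445 bases beyond its GENCODE end, at the annotated end of Itsn1-201. Within GENCODE, 72 bases and 1 of its 28 splice junctions are in no other Itsn1 transcript, so its count rests on how the assembler divided reads that other Itsn1 transcripts share.

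The assembled transcript MSTRG.12194.15 (chr16:91739022-91818670, 12 exons) was also lower. It had 22.0, 48.1 and 32.5 scaled counts on high-fat food, against 120.2, 270.3 and 163 on normal food. The means were 34.2 ± 13.1 on high-fat food and 185 ± 77.3 on normal food (SD, n = 3 each), a log2 difference of -2.43 ± 0.50 (SE). Its first base lies in intron 1 of Itsn1-201, 9651 bases downstream of that transcript's start and in no GENCODE exon of the gene. Its last base, 91818670, is the end of exon 12 of Itsn1-201, an internal splice boundary. Both listed Itsn1 transcripts together had 34.2 ± 13.1 scaled counts on high-fat food and 929 ± 143 on normal food, a log2 difference of -4.76 ± 0.47 (SE), or -5.35 with DESeq2's size factors. The 30 other GENCODE transcripts of Itsn1, the long form included, are not in the table, so no statement on the total of intersectin RNA can be made from these values.

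**Figure D2:**
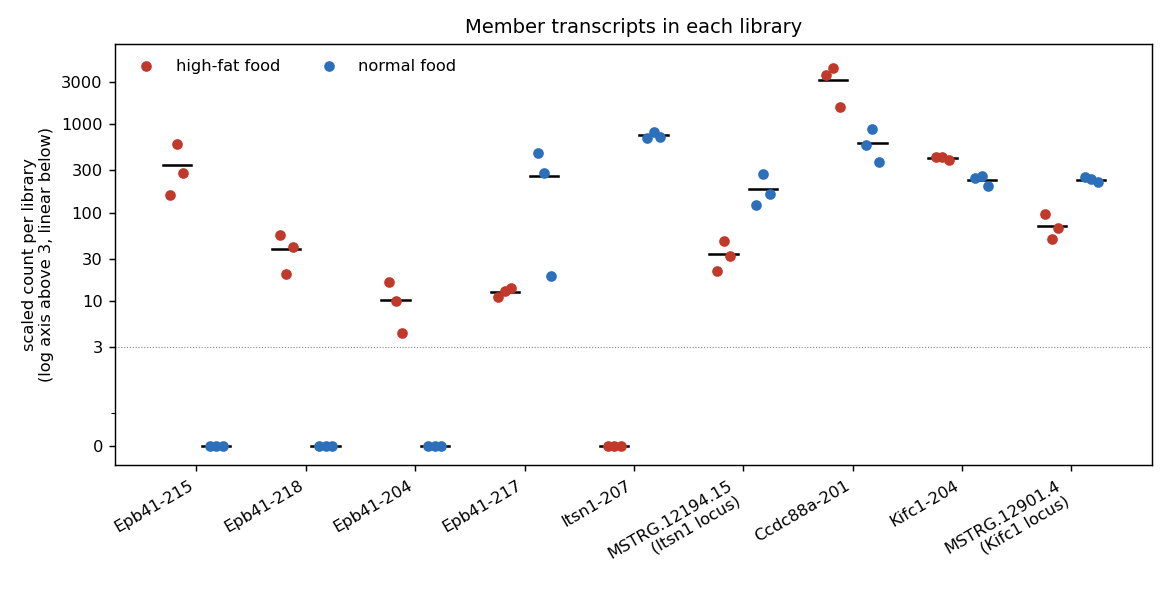
Scaled count of each member transcript in each library (log axis above 3, linear below). Points are libraries, bars are means of 3, and the dotted line marks 3. The diets do not overlap for any of the 9, and 4 are at 0 in each library of a diet.

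Ccdc88a-201 had the highest level per length of the 9 transcripts on high-fat food. Ccdc88a-201 (ENSMUST00000040182, chr11:29373658-29511483, plus strand, 32 exons) is the canonical transcript and encodes a girdin of 1845 residues. It had 3584, 4249 and 1572 scaled counts on high-fat food, against 585, 867 and 376 on normal food. The lowest high-fat library, 12, lies above the highest normal-food library, 8. The mean was 5.15 times that on normal food, with a log2 difference of 2.36 ± 0.51 (SE). The range within a diet was wide, since the highest library had 2.70 times the lowest on high-fat food and 2.31 times on normal food. The deposited model ends 675 bases beyond the GENCODE model. No other transcript of this locus is listed, so transcripts cannot be set beside each other here as at the other 3 loci.

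At Kifc1 the listed transcripts differed in opposite directions while their sum was similar in both diets. The other GENCODE transcripts of Kifc1 are not listed, so the total output of the gene was not analysed here. Kifc1-204 (ENSMUST00000173492, chr17:33875659-33890661, minus strand, 11 exons) is canonical and encodes 674 residues. It had 425, 427 and 387 scaled counts on high-fat food, against 245, 255 and 199.98 on normal food. Its fold of 1.77 was the smallest among the 9, and its libraries were close to each other within a diet, with means of 413 ± 22.2 on high-fat food and 233 ± 29.3 on normal food (SD, n = 3 each). The log2 difference was 0.82 ± 0.31 (SE), but 0.47 ± 0.32 with TMM and 0.29 ± 0.32 with DESeq2's size factors. Within GENCODE, 37 of its bases and 0 of its 10 junctions are in no other Kifc1 transcript, so its count too rests on the division of shared reads.

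The assembled transcript MSTRG.12901.4 (chr17:33875780-33888521, 11 exons, 2354 bases) had 96.9, 50.1 and 66.7 scaled counts on high-fat food, against 249, 236 and 222 on normal food. The log2 difference was -1.73 ± 0.38 (SE). It starts in intron 1 of Kifc1-204, 2140 bases downstream of that transcript's start, at a base that is in no GENCODE exon of the gene. It therefore cannot hold the annotated first exon. The sum of both was 522, 477 and 454 scaled counts on high-fat food, against 493, 491 and 422 on normal food. These overlap, and the means of 484 ± 34.6 and 469 ± 40.6 differ by less than 1 SD (log2 difference 0.05 ± 0.29, SE). The sign of this difference depends on the scaling. With TMM it was -0.43 and with DESeq2's size factors -0.53, while these scalings moved the median listed transcript by -0.35 and -0.52. Both scalings were estimated from the listed transcripts alone, all chosen by their diet difference. They therefore lack an unchanged reference and cannot decide the sign.

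Shares within a locus do not depend on the scaling. Kifc1-204 made up 81.4%, 89.5% and 85.3% of the listed Kifc1 counts in the high-fat libraries, against 49.6%, 51.9% and 47.4% in the normal-food libraries. Kifc1 has a close copy, Kifc5b, elsewhere on chromosome 17 (chr17:26917091-26932583). The coding sequences of Kifc1-204 and Kifc5b-201 are 98.4% identical over their aligned bases, with 32 mismatches. Reads could be assigned to either gene, so the Kifc1 levels are uncertain to that extent. No Kifc5b transcript is listed.

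**Figure D3:**
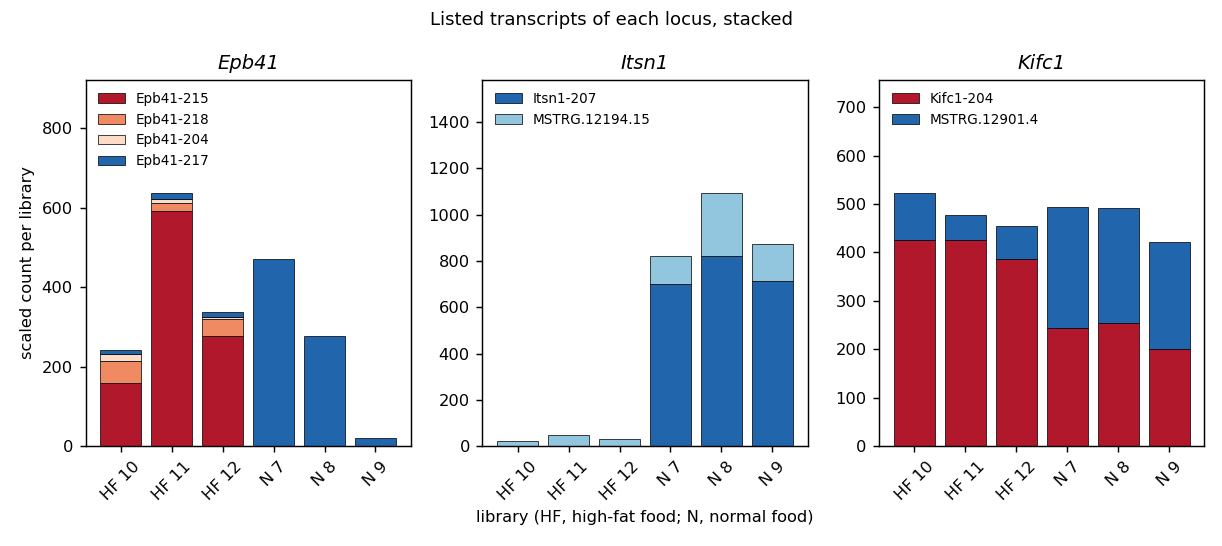
Scaled counts of the listed transcripts, stacked for each library, at the 3 loci with more than 1 (HF, high-fat food; N, normal food). The Kifc1 columns are of similar height in both diets with unlike shares, the Itsn1 columns are low on high-fat food, and normal-food library 9 is low at Epb41.

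Per 1000 bases of transcript, the order of the levels differed between the diets. On high-fat food Ccdc88a-201 was highest at 312 ± 139 scaled counts per 1000 bases (SD, n = 3), followed by Kifc1-204 at 175 ± 9.43 and Epb41-215 at 67.7 ± 44.1. The means of the first 2 differ by less than the larger of their SDs, but by more than the SD of Kifc1-204. MSTRG.12901.4 followed at 30.3 ± 10.1, MSTRG.12194.15 at 20.6 ± 7.89 and Epb41-218 at 11.5 ± 5.23. Epb41-217 and Epb41-204 were lowest, at 2.80 and 2.03. On normal food Itsn1-207 was highest at 139 ± 12.4, followed by MSTRG.12194.15 at 111 ± 46.6, MSTRG.12901.4 at 100.1 ± 5.69 and Kifc1-204 at 99.0 ± 12.4. The means of each neighbouring pair among these 4 differ by less than the larger SD of the pair. Ccdc88a-201 at 60.6 ± 24.5 and Epb41-217 at 56.3 ± 50.0 came next, and the other 3 Epb41 transcripts were at 0.

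Of the 9 transcripts, 5 were higher and 4 lower on high-fat food. In the authors' deposited table, 460 were higher (0.48% of the 95751 tested) and 371 lower (0.387%), so 0.868% were called. The median size of the log2 fold change in the authors' deposited table was 4.33 for the 9 transcripts and 5.30 for all 831. A count of 0 in all 3 libraries of a diet was found in 4 of the 9 and in 250 of the 831 (30.1%). The libraries of the diets did not overlap for 9 of the 9, against 759 of 831 listed transcripts (91.3%). In edgeR on the listed counts, 8 of the 9 passed the count filter, and Epb41-204 did not. There 678 of 680 tested transcripts (99.7%) were called, 55.7% higher and 44% lower, a share fixed by how the table was made. By mean scaled count Ccdc88a-201 ranked 40 of 831, and Epb41-204 ranked 816.

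**Figure D4:**
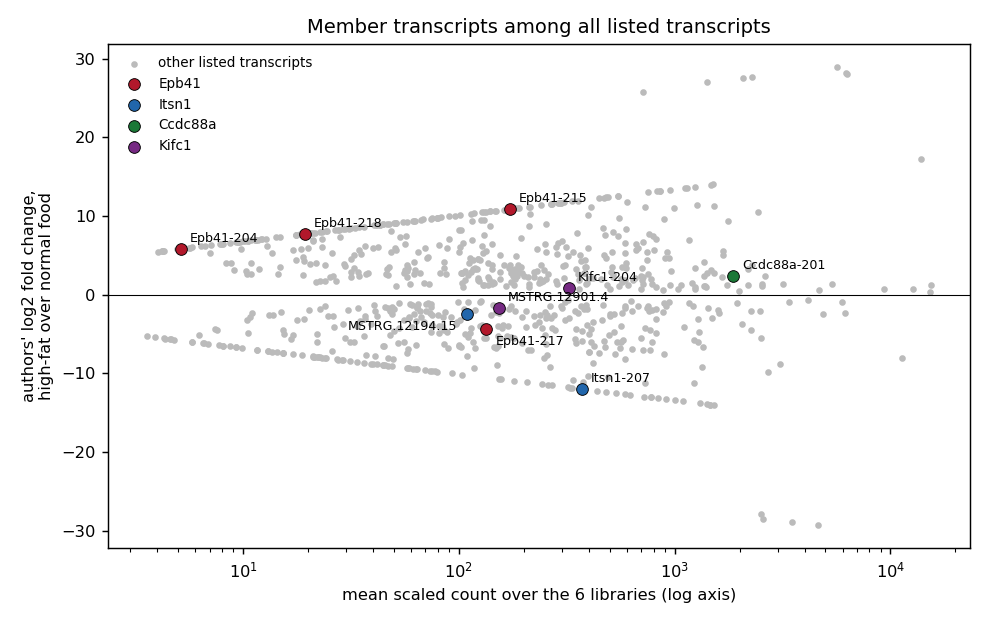
Log2 fold change of the authors' deposited table against the mean scaled count over the 6 libraries (log axis) for the 831 listed transcripts, with the 9 members in colour. Epb41-204, Epb41-215, Epb41-218 and Itsn1-207 lie on the outer bands of transcripts at 0 in a diet, and the other 5 lie inside them.

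Among 194 other genes of clathrin-mediated endocytosis, the membrane skeleton, girdin partners with actin nucleation, and microtubule motors, 5 had a listed annotated transcript, 2 higher and 3 lower. All came from the same selection by diet difference as the members, so they carry no test either. The share of all genes with a listed transcript was not analysed here, so these gene counts show neither excess nor lack. For clathrin-mediated endocytosis, 1 of 49 genes was listed. Fcho2-212, a retained-intron transcript of a protein that starts clathrin pits, had 28.6, 33.0 and 37.8 scaled counts on high-fat food, against 113, 85.7 and 84.8 on normal food. Its log2 difference was -1.50 ± 0.32 (SE, edgeR).

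For the membrane skeleton, 3 of 38 genes were listed. Epb41l1-205, a transcript of a paralogue of Epb41, had 167, 95.1 and 335 scaled counts on high-fat food, against 0, 8.57 and 0 on normal food. Tpm1-211, of the actin-binding protein tropomyosin, had 83.7, 99.1 and 191 on high-fat food and 0 in each normal-food library, at least 42.5-fold higher. Ank2-214, of the spectrin-binding protein ankyrin, was at 0 in each high-fat library and at 27.7, 8.57 and 11.98 on normal food. It was below the edgeR filter, and its span overlaps other genes on the same strand. For girdin partners and actin nucleation, 0 of 45 genes were listed. For motors, 1 of 62 was listed, the kinesin transcript Kif24-201. It was at 0 in each high-fat library and at 7.44, 21.9 and 10.1 scaled counts on normal food, below the edgeR filter.

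Assembled transcripts over list genes added 3, all in the endocytosis list. MSTRG.4870.13 lies over Ap2b1, a subunit of the clathrin adaptor AP2. It had 1.10, 16.02 and 0.878 scaled counts on high-fat food, against 10218, 3243 and 2767 on normal food. MSTRG.26551.27 over Ap2a1, another AP2 subunit, had 19.8, 10.01 and 7.03 on high-fat food, against 2089, 332 and 11.1 on normal food. These groups overlap, since library 10 lies above library 9. MSTRG.5835.1 over Itsn2, the paralogue of Itsn1, had 104.6, 233 and 1.76 on high-fat food, against 0, 1.90 and 0 on normal food, and these groups overlap.

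For the most abundant listed annotated transcript of each gene, the 3 other listed annotated transcripts with the highest Pearson correlation of log2(scaled count + 1) over the 6 libraries were looked up. All points share the split by diet, so these are descriptions of likeness. Epb41-215 was most like Fos-201 (r = 0.9997), Ipp-201 (r = 0.998) and Gm6740-202 (r = 0.997), which were also at 0 on normal food and highest in library 11. This likeness is of single transcripts, since Fos-203 and Gm6740-201, also listed, were lower on high-fat food (authors' log2 fold change -8.05 and -2.85). Itsn1-207 was most like Pank2-208, Gm4673-201 and Gm7292-201 (r from 0.99992 to 0.99995), all at 0 on high-fat food. Ccdc88a-201 was most like Nap1l4-209 (r = 0.989), Srp54c-202 (r = 0.984) and Ttyh1-203 (r = 0.981), in which library 12 was also the lowest on high-fat food. Kifc1-204 was most like Gm7292-202 (r = 0.999), Cebpg-202 (r = 0.995) and Tmsb4x-202 (r = 0.993), in which library 9 was also the lowest on normal food.

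Of the 35 sets in the authors' deposited enrichment tables, 4 include a member gene by its human symbol. Itsn1 and Ccdc88a are each in 3 sets, Epb41 is in 2 and Kifc1 in 0. The set that holds 3 of them, positive regulation of molecular function, was given p = 0.000901, with q = 0.176, by the authors' deposited table. Of these genes, both listed Itsn1 transcripts are lower on high-fat food, while Ccdc88a-201 and Epb41-215 are higher. For Epb41 that table uses the value of Epb41-215 alone, and the lower Epb41-217 does not enter. Of the 35 sets, 0 have a q under 0.05.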

How the data were processed

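Testis libraries were made by the dUTP method, per the labels' protocols. Per the submitters' processing notes, the tools were Trimmomatic, HISAT2, StringTie and DESeq and the build was GRCm38. For these tools no version is given in the sources used here. The deposited table holds estimated counts per transcript, whole numbers as deposited by the authors. Scaled counts were rounded by the authors and treated as a score. Means of these per diet (a signal), the linear fold change (a ratio), the log2 fold change and the p-value with its adjusted form are also the authors' deposited values. Size factors were recovered as the median ratio of count to scaled count at counts of at least 5000, and counts were divided by them. edgeR 4.0.16 in R 4.3.3 (quasi-likelihood test, filterByExpr with a minimum count of 10, Benjamini-Hochberg, threshold 0.05) was fitted on all listed transcripts with these size factors. A locus sum replaced its transcripts in a second fit. The step was tested on simulated counts with 200 changed transcripts and none set to 0 in a diet. That setting differs from the deposited table, where nearly all tested transcripts are called. The alternatives were TMM, DESeq2's size factors, no filter, DESeq2 1.42.0 and leaving out each library. TMM and DESeq2's size factors were estimated from the listed transcripts alone. The number of transcripts the authors tested, 95751, follows from their adjusted and unadjusted p-values. A floor of 3 counts stands for 0 in all libraries of a diet and covers counting error only. The SDs and the SEs of log2 differences also hold the spread between libraries. Members, gene lists and rules were chosen with earlier results of these data known. Genes named besides the members were the listed transcripts of the gene lists and the 3 most alike transcripts of each gene. Library numbers are not shared between the diets. Numbers of other sample columns left out: 0.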

Additional observations from a re-analysis of the deposited data

How the results depend on the processing

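No paired analysis was possible because the library numbers are not shared between the diets. The count of 678 listed transcripts called by edgeR was 657 with TMM, 628 with DESeq2's size factors, 822 with no filter and 831 with DESeq2, and between 694 and 714 when 1 library was left out. The 9 listed transcripts of the gene lists called by edgeR, members included, became 8 with TMM and 8 with DESeq2's size factors, where Kifc1-204 was no longer called, and 12 with no filter and 12 with DESeq2. They numbered between 9 and 11 when 1 library was left out, and 13 when assembled transcripts over list genes were added, an alternative chosen after the data were seen. Because the table holds called transcripts only, these counts do not test the diet. For the same reason TMM and DESeq2's size factors, estimated from the listed transcripts alone, lack an unchanged reference. They moved the median listed transcript by -0.35 and -0.52. Of 110 alternative log2 differences for 8 member transcripts and 3 locus sums, 12 moved by more than the spread between libraries. Of these, 10 came with another scaling, and for Kifc1-204 the log2 difference of 0.82 was 0.47 with TMM and 0.29 with DESeq2's size factors. The other 2, of Epb41-218 and Itsn1-207, came with DESeq2 and concern transcripts at 0 in a diet, whose fitted values depend on the tool.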
